A study of Mus musculus with 19 samples.

Results

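Sorting with an antibody against SIX2 split cells of the mouse kidney nephrogenic zone, the outer rim in which nephrons form, into SIX2+ and SIX2− cells, and the messenger RNA of both was sequenced. The comparison rests on 6 of the 19 libraries of the series, 3 of SIX2+ and 3 of SIX2− cells, chosen by their labels. All 6 came from kidneys of CFW mice, an outbred strain, on day E16.5 of embryonic life, and the labels give no allele and no treatment for them. Libraries with the same number formed pairs 1, 2 and 3. The titles carry the word MARIS, the name of a method in which fixed and permeabilised cells are stained for a protein inside the cell and sorted before RNA is extracted. The labels do not say whether the libraries came from separate animals or pools, so the p-values speak for the scatter among these libraries alone, part of which may be technical. Across genes, 12050 of 20162 names had a level of at least 1 RPKM (reads relative to the length of the gene and the depth of the library) in at least 3 of the 6 libraries and were tested.

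SIX2 is a homeodomain transcription factor that keeps nephron progenitors in an undifferentiated, self-renewing state. These progenitors form the cap mesenchyme, a tight cap of cells around each tip of the branching ureteric bud. The bud signals to the cap through Wnt ligands, the cap signals back through GDNF, and cells that leave the cap pass through a mesenchyme-to-epithelium transition into renal vesicles and then nephrons. Stromal progenitors marked by Foxd1 surround the caps and give rise to interstitial fibroblasts, pericytes and mesangial cells.

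The SIX2+ fraction was read here through Six2 itself, the progenitor genes Cited1 and Crym, and Col3a1, a fibrillar collagen gene of interstitial cells. Six2 (ENSMUSG00000024134.11) lies on chromosome 17 (85684277 to 85688274, minus strand) and Cited1 (ENSMUSG00000051159.16) on chromosome X (102247381 to 102252181, minus strand). Crym (ENSMUSG00000030905.5) lies on chromosome 7 (120186380 to 120202111, minus strand) and Col3a1 (ENSMUSG00000026043.18) on chromosome 1 (45311538 to 45349706, plus strand), all in GENCODE M21 on GRCm38. The 250 bases upstream of the annotated start are shown for the genes with the largest changes in each direction, Six2 and Cited1, which were high in SIX2+ cells, and Col3a1 and Col1a2, which were high in SIX2− cells. They come from RefSeq on GRCm38.p6 and read 5′ to 3′ on the gene's strand, and capitals mark CCAAT or TATAAA on either strand. For Cited1, which has 3 annotated starts, the outermost is shown.
Six2, chr17:85688255-85688504, minus strand: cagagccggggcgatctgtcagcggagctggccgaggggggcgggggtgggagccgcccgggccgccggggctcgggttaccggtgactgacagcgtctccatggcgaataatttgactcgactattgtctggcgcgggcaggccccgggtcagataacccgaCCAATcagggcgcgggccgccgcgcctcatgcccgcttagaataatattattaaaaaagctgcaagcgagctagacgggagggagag
Cited1, chrX:102252182-102252431, minus strand: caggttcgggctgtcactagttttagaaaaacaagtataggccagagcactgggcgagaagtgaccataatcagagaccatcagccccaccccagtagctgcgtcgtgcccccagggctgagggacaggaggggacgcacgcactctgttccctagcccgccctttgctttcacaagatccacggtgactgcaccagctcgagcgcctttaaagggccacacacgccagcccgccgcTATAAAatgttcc
Col3a1, chr1:45311288-45311537, plus strand: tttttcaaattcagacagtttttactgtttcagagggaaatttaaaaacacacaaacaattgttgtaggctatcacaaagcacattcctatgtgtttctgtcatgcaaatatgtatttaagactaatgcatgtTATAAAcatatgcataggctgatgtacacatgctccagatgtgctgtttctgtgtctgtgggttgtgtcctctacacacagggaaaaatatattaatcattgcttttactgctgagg
Col1a2, chr6:4505368-4505617, plus strand: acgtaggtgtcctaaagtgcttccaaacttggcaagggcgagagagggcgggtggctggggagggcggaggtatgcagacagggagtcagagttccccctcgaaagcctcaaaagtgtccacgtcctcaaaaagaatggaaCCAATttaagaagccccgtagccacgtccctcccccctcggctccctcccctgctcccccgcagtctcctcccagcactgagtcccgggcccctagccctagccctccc

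Across these windows the base composition ran from 35.2% G and C at Col3a1 to 64.8% at Six2, with 58% at Cited1 and 62% at Col1a2. The CCAAT box, read by NF-Y, started 87 bases upstream at Six2 and 109 at Col1a2, and TATAAA, read by the TATA-binding protein, started 13 bases upstream at Cited1 and 117 at Col3a1. Of 32851 windows of the same length, 33.8% held CCAAT and 12.4% held TATAAA. TCAGGTTTC, a form of the MEF3 site, was searched on both strands and was in none of these 4 windows, and 0.387% of all windows held it.

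Depth and the paired libraries were compared before the genes. The number of reads is unknown, but the smallest values step in units of 1 read, and from these the depth relative to the shallowest library was 1.04, 1.73 and 1.64 in SIX2+ libraries 1 to 3 and 1, 1.64 and 1.53 in SIX2− libraries 1 to 3. Library SIX2+ 1 stood apart at Six3, the neighbour of Six2 on chromosome 17, a transcription factor of eye and forebrain. Six3 was at 15.2 RPKM in SIX2+ library 1, against 0.232 and 0.0251 in SIX2+ libraries 2 and 3 and at most 0.0617 in the SIX2− libraries. Among the other E16.5 libraries, Six3 was at 52.3, 41.5 and 38.9 RPKM in GFP+ cells sorted from Six2TGC/+ kidneys, at 0.611 to 1.22 in the matching GFP− cells, and at 12.7, 5.16 and 0 in unsorted nephrogenic zone cells. The labels give Six2TGC/+, a transgene that drives GFP and Cre from Six2 regulatory DNA, for the GFP libraries only, and the allele carried by the cells of pair 1 was not tested. For the gene lists below, a count without pair 1 is given where it differs by over 1.5 times, and for some others; smaller changes are not listed.

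SIX2 mRNA followed the antibody. Six2 was at 301, 295 and 458 RPKM in the SIX2+ libraries of pairs 1, 2 and 3 and at 4.43, 7.59 and 46.8 in the SIX2− libraries. The groups did not overlap, and the SIX2− library of pair 3 was the highest of its group. On the log2(RPKM + 1) scale, used for every difference here, Six2 rose by 4.72 ± 0.42 (SE, adjusted p = 0.000132). Cited1, a coactivator made by the most immature cap cells, was at 226, 213 and 339 against 4.06, 4.41 and 22.9 RPKM and rose by 4.87 ± 0.29 (adjusted p = 2.34e-05). Again pair 3 held the highest SIX2+ and the highest SIX2− value. Crym, which binds thyroid hormone in the cytoplasm, was at 257, 188 and 170 against 4.76, 4.36 and 15.05 RPKM and rose by 4.68 ± 0.35 (adjusted p = 6.52e-05). Here pair 3 was the lowest of the SIX2+ and the highest of the SIX2− libraries. Col3a1 was at 1.98, 1.18 and 1.79 in SIX2+ against 511, 315 and 461 RPKM in SIX2− libraries and fell by 7.33 ± 0.07 on the log2 scale (adjusted p = 3.48e-08), with no library between the groups. In unsorted nephrogenic zone cells the levels lay between those of the sorted fractions for Six2 (65.2, 68.1 and 166) and Crym (58.4, 67.9 and 63.6). Cited1 was at 8.35, 14.8 and 94.3 there, with 8.35 and 14.8 inside the range of the SIX2− libraries, and Col3a1 was at 629.8, 286 and 289. These levels match the label of the sort. In bulk RNA fewer cells of a type and less RNA per cell cannot be told apart.

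**Figure D1:**
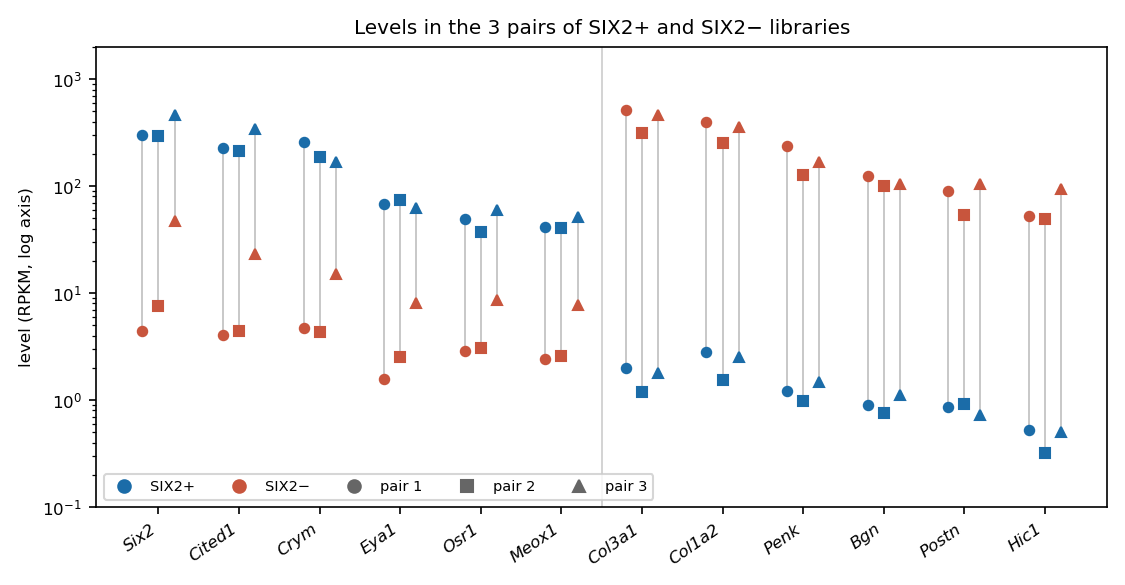
Levels (RPKM, log axis) of 6 genes high in SIX2+ and 6 genes high in SIX2− cells, with 1 point per library, blue for SIX2+ and red for SIX2−, and grey lines joining the libraries of a pair. All 12 genes were chosen from those whose groups do not overlap. For the 6 genes on the left the SIX2− library of pair 3 (triangles) is the highest of its group, as for Six2 at 46.8.

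Of the 12050 genes tested, 6319 were called (adjusted p under 0.05), 52.4% of them. In SIX2+ cells 3356 (27.9%) rose and 2963 (24.6%) fell. By at least 1 on the log2 scale 415 genes (3.44%) rose and 1232 (10.2%) fell, so large changes were mostly downward. Without pair 1, 2033 rose and 2323 fell, and of the large changes 403 and 1182 were called. Counts of called genes below are read against these shares. A gene below 1 RPKM in all libraries of 1 fraction was tested only if all 3 of the other reached 1. Such a gene could differ in 1 direction only.

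Genes that rose most came from several families. Eya1, the phosphatase and coactivator that partners SIX2 and its relatives, was at 68.2, 73.6 and 62.0 RPKM in SIX2+ against 1.58, 2.51 and 8.0 in SIX2− libraries (3.99 ± 0.33). Spock2, a secreted proteoglycan, was at 97.2, 141 and 209 against 3.58, 5.74 and 25.04 (3.94 ± 0.26). Ocm, the calcium buffer oncomodulin, was at 21.6, 15.5 and 19.6 against 0.103, 0.126 and 0.909 (3.89 ± 0.17), with most of its SIX2− level in pair 3. Traf1, a signalling adaptor of tumour necrosis factor receptors, was at 21.3, 25.2 and 43.7 against 0.586, 0.526 and 2.85 (3.82 ± 0.12). AU015791, a gene named by a clone only, rose by 3.39 ± 0.12 and Nell1, a secreted growth factor-like protein, by 3.30 ± 0.10. The homeobox gene Meox1 rose by 3.27 ± 0.19, the growth factor gene Fgf1 by 3.23 ± 0.14 and Osr1, a zinc finger factor that acts early in the intermediate mesoderm, by 3.20 ± 0.18. With Six2, Cited1 and Crym these are the 12 largest rises among called genes with a mean of 5 RPKM or more in the higher group. Lack of overlap between the 2 groups was a condition of this choice, so it is not a result about these genes.

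Genes that fell most were led by the extracellular matrix. After Col3a1 came Col1a2 at 2.83, 1.53 and 2.52 in SIX2+ against 394, 255 and 358 RPKM in SIX2− libraries (−6.67 ± 0.06). Penk, which encodes proenkephalin, was at 1.22, 0.975 and 1.47 against 239, 127 and 168 (−6.29 ± 0.14). Bgn, the matrix proteoglycan biglycan, was at 0.890, 0.757 and 1.12 against 123.4, 99.4 and 105 (−5.84 ± 0.09). The highest SIX2+ library was far below the lowest SIX2− library in each, although lack of overlap was a condition for naming them. Ecm1, a secreted matrix protein, followed at −5.63 ± 0.13, Col1a1 at −5.495 ± 0.24, Postn, a matricellular protein, at −5.46 ± 0.19 and Hic1, a transcriptional repressor of mesenchymal cells, at −5.45 ± 0.16. Plac8 (−5.32 ± 0.21), the IGF-binding protein gene Igfbp7 (−5.31 ± 0.13) and Col6a2 (−5.28 ± 0.11) completed them.

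The nephron progenitor list moved together. Of 25 genes listed 24 were tested; 23 rose, 20 of them by at least 1, none fell, and the median difference was 1.94 against 0.05 over all genes. Among the transcription factors, Pax2, which specifies the nephric lineage, was at 115, 147 and 214 against 19.8, 35.1 and 63.2 RPKM (2.09 ± 0.13). Sall1 was at 103, 104 and 98.2 against 28.7, 43.3 and 49.3 (1.35 ± 0.15), and Wt1, a progenitor and podocyte factor, at 147, 155 and 121 against 63.5, 83.6 and 51.1 (1.10 ± 0.09). These 3 factors thus kept levels in SIX2− cells that Six2 did not. The homeobox genes Meox2 (2.78 ± 0.15) and Uncx (2.28 ± 0.19) rose as well. Of surface and adhesion genes, Robo2, the receptor of SLIT, was at 51.9, 52.5 and 41.7 against 8.51, 7.06 and 8.89 (2.44 ± 0.12), and Itga8, the integrin that binds nephronectin, at 44.6, 51.8 and 43.3 against 22.4, 16.3 and 15.6 (1.33 ± 0.12). Gas1, a membrane coreceptor, was at 219.6, 232 and 234 against 65.7, 53.0 and 79.0 (1.80 ± 0.11). The BAF-complex gene Dpf3 was low, at 3.02, 2.92 and 4.13 against 0.923, 0.630 and 0.669 (1.32 ± 0.13).

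Gdnf, the ligand through which the cap drives ureteric branching, was the one tested progenitor gene not called. It was at 21.5, 20.9 and 25.9 RPKM in SIX2+ and at 18.8, 20.4 and 43.8 in SIX2− libraries (−0.17 ± 0.17, adjusted p = 0.413). The SIX2− library of pair 3 was the highest of the 6, and without pair 3 the difference was 0.11 (adjusted p = 0.4). Its coreceptor Gfra1 rose, at 42.4, 38.7 and 47.4 against 4.85, 6.29 and 8.71 RPKM (2.55 ± 0.11), whereas Ret, the signalling receptor of the ureteric tip, fell by 1.27 ± 0.15 on the log2 scale. Of 10 tested GDNF and RET pathway genes, 4 rose and 4 fell; 2 fell without the pairing in the fit.

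**Figure D2:**
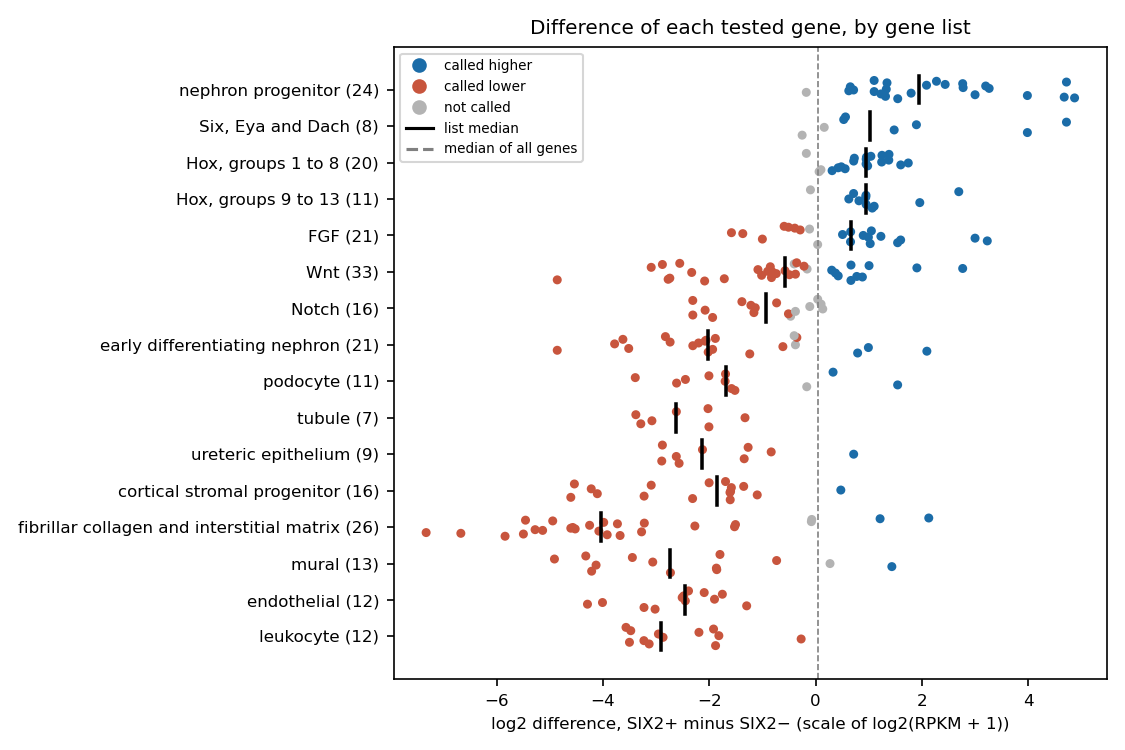
Log2 difference of SIX2+ minus SIX2− for each tested gene of 16 gene lists (number tested in brackets), blue if called higher, red if called lower and grey if not called. Black bars are list medians, from 1.94 for nephron progenitor to −4.03 for fibrillar collagen and interstitial matrix, and the dashed line is the median of all genes, 0.05.

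How much progenitor RNA remained in the SIX2− fraction differed between pairs and between genes. For Six2, the SIX2− level was 1.47%, 2.58% and 10.2% of the SIX2+ level in pairs 1, 2 and 3. For Cited1 it was 1.80%, 2.07% and 6.76%, for Crym 1.86%, 2.31% and 8.87%, for Eya1 2.32%, 3.41% and 12.9% and for Fgf20 1.11%, 2.48% and 10.0%. In pair 3, then, all 5 of these genes remained at a higher share than in the other pairs. Over the 20 progenitor genes that rose by at least 1, the share was highest in pair 3 for 15. Other progenitor genes remained at far higher shares than Six2: Pax2 at 17.1%, 23.9% and 29.6%, Sall1 at 27.8%, 41.6% and 50.2%, and Wt1 at 43.1%, 54.0% and 42.3%. The median over the 20 genes was 14.6%, 17.1% and 18.8%. These are levels in sorted fractions with no test, and whether they come from progenitors in the SIX2− gate or from other cells was not tested.

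**Figure D3:**
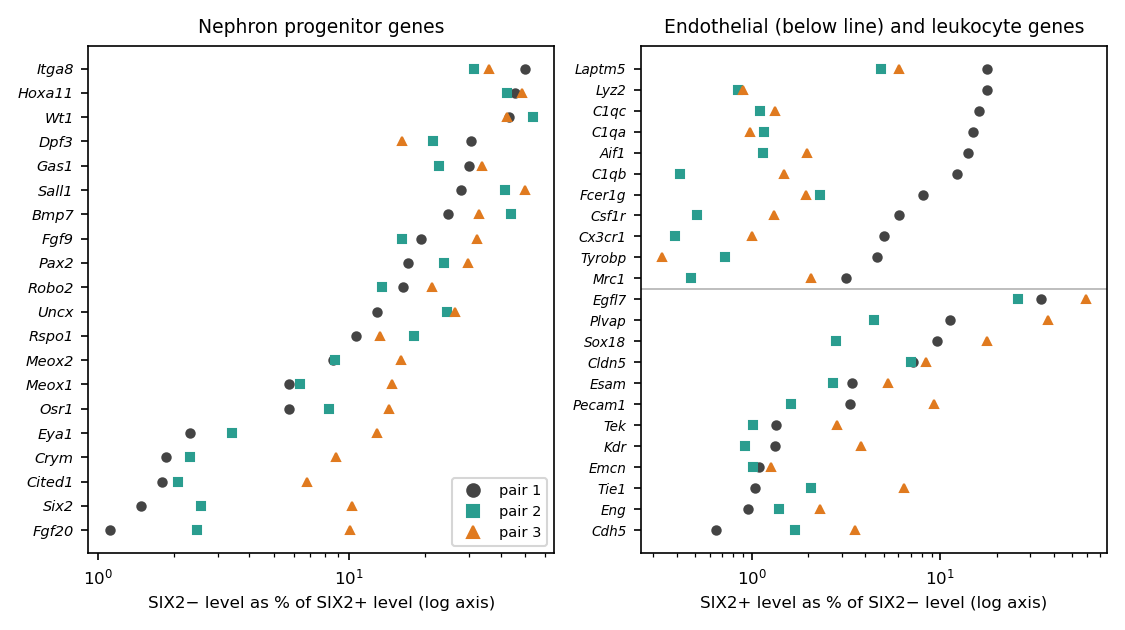
Left, SIX2− level as a percentage of the SIX2+ level in each pair (log axis) for the 20 progenitor genes that rose by at least 1; right, SIX2+ level as a percentage of the SIX2− level for endothelial and leukocyte genes that fell by at least 1. Pair 3 is highest for 15 of the 20 progenitor genes, and pair 1 is highest for every leukocyte gene shown, as for Lyz2 at 17.6%.

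Hox genes, the clustered homeobox genes that carry positional identity along the body axis, rose across all 4 clusters. Of 31 tested, 27 rose, 11 of them by at least 1, and none fell, with a median of 0.95; the counts were 7 of 9 in Hoxa, 8 of 8 in Hoxb, 7 of 7 in Hoxc and 5 of 7 in Hoxd. Without pair 1, 25 rose. The largest change was that of Hoxd12, at 12.8, 8.55 and 10.9 RPKM in SIX2+ against 0.537, 0.556 and 1.42 in SIX2− libraries (2.70 ± 0.16). Hoxb9 was at 57.5, 58.8 and 75.3 against 12.7, 16.2 and 18.1 (1.96 ± 0.08), Hoxb5 at 62.2, 53.9 and 71.2 against 16.0, 16.6 and 21.2 (1.75 ± 0.07), and Hoxb3 at 56.2, 54.3 and 43.3 against 17.0, 15.5 and 15.9 (1.604 ± 0.09). The SIX2− libraries thus kept 12.7 RPKM or more of Hoxb9, Hoxb5 and Hoxb3, whereas Hoxd12 was at most 1.42 there. Among the group 11 genes that kidney formation needs, Hoxa11 was at 54.4, 50.1 and 61.7 against 24.9, 21.2 and 30.0 (1.10 ± 0.07) and Hoxd11 at 43.5, 35.5 and 41.1 against 24.2, 20.8 and 27.0 (0.72 ± 0.07). Hoxd9 and Hoxd8, of the same cluster as Hoxd11 and Hoxd12, were not called: Hoxd9 was at 29.3, 25.2 and 31.2 against 30.0, 29.6 and 31.9 (−0.10 ± 0.07, adjusted p = 0.303) and Hoxd8 at 21.6, 17.9 and 10.9 against 21.6, 18.7 and 15.4 (−0.17 ± 0.10, adjusted p = 0.198). Whether reads were counted by strand is not given in the sources used here, so reads of antisense transcripts within the clusters cannot be told apart from those of the Hox genes.

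**Figure D4:**
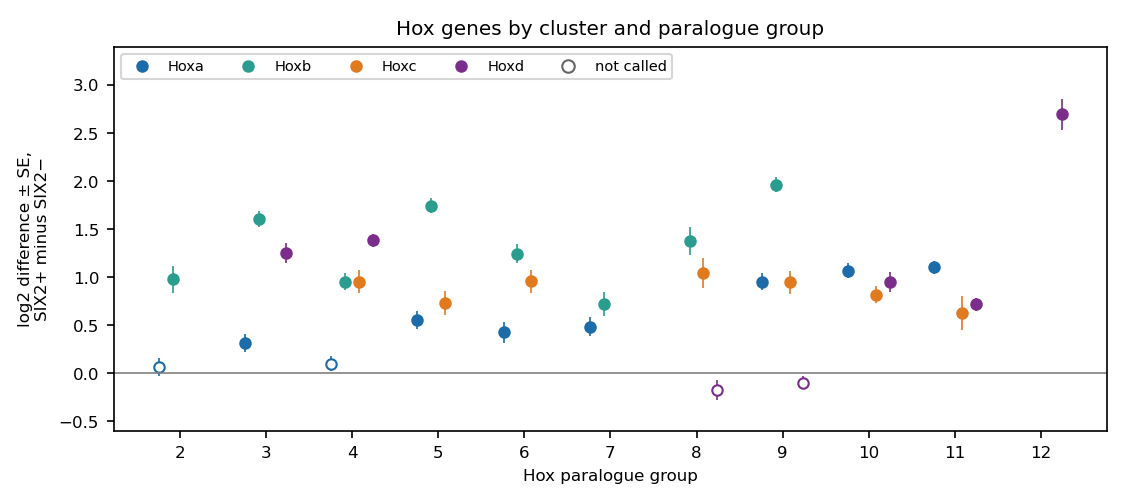
Log2 difference ± SE of SIX2+ minus SIX2− for the 31 tested Hox genes by paralogue group, coloured by cluster, with open circles for genes not called. Points lie above 0 for all but Hoxd8 and Hoxd9, and Hoxd12 is the highest at 2.70.

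In the network of SIX2, EYA1, DACH1 and their relatives, in which EYA phosphatases act as coactivators, 6 of 8 tested genes rose and none fell, although 1 fell without pair 2. Beside Six2 and Eya1, Eya4 was at 14.6, 16.6 and 12.1 against 3.396, 2.60 and 3.398 RPKM (1.90 ± 0.14) and Eya2 at 11.4, 10.4 and 14.2 against 2.58, 3.62 and 4.996 (1.48 ± 0.11). Six5 was higher by less, at 30.1, 28.9 and 36.2 against 19.3, 19.4 and 24.8 (0.56 ± 0.06). Among forkhead factors Foxd2 was at 43.0, 35.2 and 48.2 in SIX2+ against 5.604, 7.31 and 12.4 in SIX2− libraries (2.25 ± 0.15), while Foxp1 rose by 1.68 ± 0.09 and Foxc1 by 1.26 ± 0.10. Phf19, a Polycomb-associated protein that recruits the H3K27 methyltransferase, was at 34.8, 32.8 and 47.1 against 3.05, 3.23 and 7.92 RPKM (2.86 ± 0.14). Of 27 tested genes of Polycomb, DNA methylation and histone deacetylation 11 rose and none fell; 1 fell without pair 2, 7 rose without pair 1 and 5 without the pairing in the fit, and apart from Phf19 only Ezh1 (1.06 ± 0.07) rose by at least 1.

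Genes for secreted signals went in both directions, and they were not counted as a set. FGF ligands keep cap cells alive and undifferentiated, and 12 of 21 tested FGF pathway genes rose and 7 fell. Among the ligands, Fgf20 was at 11.5, 10.1 and 8.85 RPKM in SIX2+ against 0.128, 0.250 and 0.888 in SIX2− libraries (3.002 ± 0.20), Fgf1 at 16.7, 18.6 and 22.2 against 0.948, 0.579 and 2.15, and Fgf10 at 7.84, 7.48 and 4.63 against 1.36, 1.44 and 1.62 (1.602 ± 0.16). The groups did not overlap in these 3 ligand genes, which were picked by role or size of change. The share of all genes without overlap is not given here, so this is not read as a trait of FGF ligands. Of the receptors, Fgfr1 rose by 0.90 ± 0.08, at 121, 139 and 162 against 58.3, 76.9 and 91.8, whereas Fgfr3 (−1.37) and Fgfr4 (−1.58) fell. The target Etv4, an ETS factor, rose by 1.54 ± 0.18.

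Wnt pathway genes divided. Of 33 tested, 10 rose and 21 fell. The R-spondin genes, whose secreted products amplify Wnt signals, rose: Rspo1 was at 91.1, 68.3 and 93.7 against 9.69, 12.3 and 12.4 RPKM (2.77 ± 0.13) and Rspo3 at 23.3, 17.7 and 16.2 against 3.63, 3.71 and 5.78 (1.91 ± 0.18). So did Tcf7l1, a repressor of Wnt targets (1.01). Lef1, the effector that accumulates when the pathway is active, fell, at 1.57, 1.83 and 0.720 against 11.5, 10.8 and 9.80 (−2.33 ± 0.13), as did the receptor Fzd1 (−2.74 ± 0.10), the ligand Wnt5a (−2.55 ± 0.17) and the secreted inhibitor Sfrp1 (−3.09 ± 0.15). Of 24 tested BMP and TGF-beta genes 3 rose (5 after quantile normalisation) and 10 fell. Bmp7, a survival factor of the cap, was at 51.0, 46.0 and 60.0 against 12.6, 20.2 and 19.7 RPKM (1.55 ± 0.14), and the activin receptor gene Acvr2b rose by 1.23 ± 0.08, while Tgfb1 fell by 3.02 ± 0.10 on the log2 scale.

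Early differentiating nephron genes, which come on as cap cells form the renal vesicle, were mostly lower in SIX2+ cells: of 21 tested, 16 fell, 14 of them by at least 1, and 3 rose (median −2.02). Dkk1, a Wnt inhibitor, was at 0.294, 0.215 and 0.454 RPKM in SIX2+ against 33.6, 40.6 and 37.8 in SIX2− libraries (−4.86 ± 0.10). The zinc finger gene Osr2 was at 1.80, 2.67 and 1.57 against 35.9, 54.4 and 23.1 (−3.62 ± 0.13) and Emx2 at 0.745, 0.891 and 1.07 against 21.9, 29.5 and 13.6 (−3.51 ± 0.21). In no pair did the SIX2+ level of these 3 genes pass 7.85% of the SIX2− level. Lhx1, a factor of the renal vesicle, was at 2.26, 4.39 and 2.29 against 9.34, 20.5 and 17.8 (−2.06 ± 0.15), and the cadherin gene Cdh6 at 2.66, 3.51 and 1.29 against 14.52, 18.2 and 7.43 (−2.02 ± 0.09).

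Some genes of the transition did not follow these. Wnt4, the ligand that drives it, was at 40.4, 38.4 and 16.8 RPKM in SIX2+ against 28.6, 53.9 and 40.3 in SIX2− libraries (−0.40 ± 0.27, adjusted p = 0.255). It was higher in the SIX2+ library of pair 1 and lower in those of pairs 2 and 3, so the call turned on the pairs: without pair 1 it fell by 0.84 (adjusted p = 0.000671), and without pair 3 the difference was 0.00 (adjusted p = 0.992). Pax8, a paired box factor switched on at the transition, was at 34.0, 41.1 and 38.9 against 35.4, 65.6 and 49.5 (−0.35 ± 0.11, adjusted p = 0.0377), a call lost in 7 of the alternatives, with adjusted p from 0.055 without pair 3 to 0.299 with all 15 libraries, and 0.25 without the pairing in the fit. Cxcr4, the receptor of the chemokine CXCL12, rose, at 28.3, 28.8 and 30.3 against 3.84, 6.27 and 8.96 (2.10 ± 0.16). Its ligand went the other way: Cxcl12 was at 6.63, 8.28 and 6.41 in SIX2+ against 38.7, 35.3 and 43.6 in SIX2− libraries (−2.31 ± 0.12). Cdh4 rose by 0.79 ± 0.14 and Fgf8, the ligand of the nascent renal vesicle, by 0.99 ± 0.15 (12.1, 13.7 and 16.6 against 3.87, 9.10 and 7.71), although Fgf8 was not called when all 15 E16.5 libraries were fitted (adjusted p = 0.158). Notch genes, which pattern the vesicle, fell in 10 of 16 tested cases and rose in none (1 rose after quantile normalisation). The ligand Jag1 was at 5.37, 9.43 and 3.13 against 23.8, 38.4 and 20.1 (−2.08 ± 0.10), Dll1 fell by 1.94 ± 0.13 on the log2 scale, and the target Nrarp was at 1.97, 3.09 and 2.33 against 15.1, 26.5 and 10.1 (−2.31 ± 0.18).

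More mature epithelia were lower in the SIX2+ fraction. Of 13 tubule genes listed 7 were tested, and any below 1 RPKM in all SIX2+ libraries passed the filter through the SIX2− libraries alone. All 7 tested tubule genes fell, with the proximal tubule factor Hnf4a at 0.102, 0.0751 and 0.0842 RPKM in SIX2+ against 11.1, 11.3 and 4.19 in SIX2− libraries (−3.08 ± 0.24) and the phosphate transporter gene Slc34a1 at −2.62 ± 0.27. Of 14 podocyte genes listed 11 were tested, of which 8 fell and 2 rose (1 without the pairing in the fit). Podxl, the coat protein podocalyxin, fell by 3.39 ± 0.34 on the log2 scale. Lmx1b, a factor known from podocytes, went the other way, at 2.34, 3.69 and 6.28 against 0.652, 0.625 and 0.710 (1.55 ± 0.20). Of 12 ureteric genes listed 9 were tested, of which 8 fell and Hoxb7 rose (0.72). The limit of the filter given for tubule genes holds for podocyte and ureteric genes too, as for Gata3. Wnt11, made at the tips, was at 1.01, 0.501 and 0.855 against 15.2, 8.49 and 13.5 (−2.88 ± 0.10), and Gata3 at 0.0568, 0.0951 and 0.151 against 6.61, 6.26 and 4.59 (−2.62 ± 0.14). Of the SIX2− libraries, that of pair 3 had the lowest level of Hnf4a and of Gata3.

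Cortical stromal progenitor genes fell in 15 of 16 cases, all 15 by at least 1, and Meis2 rose (0.48). Among those that fell, the share of the SIX2− level found in the SIX2+ fraction varied widely. Foxd1, the factor that defines these cells, was at 30.6, 16.0 and 22.2 RPKM in SIX2+ against 63.9, 51.4 and 103 in SIX2− libraries (−1.61 ± 0.19), or 47.8%, 31.1% and 21.6% of the SIX2− level. Aldh1a2, which makes retinoic acid, was at 135, 113 and 86.9 against 294, 297 and 436 (−1.604 ± 0.21), and Meis1 at 14.7, 17.6 and 16.8 against 55.0, 44.8 and 55.0 (−1.598 ± 0.11). Ntn1, the guidance factor netrin 1, was at 1.46, 2.79 and 3.20 against 48.4, 43.8 and 113 (−4.22 ± 0.20), and Smoc2 at 0.387, 0.540 and 0.399 against 30.8, 21.7 and 50.7 (−4.54 ± 0.22), which is 0.787% to 2.49% of the SIX2− level. Foxd1, Aldh1a2 and Meis1 thus stayed in SIX2+ cells at 19.9% or more in every pair, whereas Ntn1 and Smoc2 did not pass 6.37%.

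Interstitial matrix genes showed the lowest list median, −4.03: of 26 tested, 22 fell, each by at least 1, and 2 rose. Summed, the list made up 0.130% to 0.152% of all values in SIX2+ and 0.469% to 0.740% in SIX2− libraries. Fn1, which encodes fibronectin, was at 8.68, 9.23 and 8.40 RPKM against 154, 97.3 and 141 (−3.73 ± 0.14), and Dcn, decorin, at 2.92, 2.03 and 1.83 against 126, 53.8 and 68.3 (−4.60 ± 0.15). The risers were Vcan, the large proteoglycan versican, at 87.4, 90.8 and 77.2 against 19.2, 16.8 and 19.9 (2.13 ± 0.10), and Tnc, tenascin C, at 28.1, 33.8 and 37.8 against 13.9, 10.3 and 17.6 (1.22 ± 0.13). Of 20 basement membrane genes 14 fell, led by Nid1, nidogen, at 4.13, 5.07 and 3.67 against 81.1, 58.0 and 59.8 (−3.66 ± 0.13). Npnt, nephronectin, the ureteric ligand of integrin alpha 8, fell by 1.93 ± 0.21 on the log2 scale, opposite to its receptor gene Itga8. Of 9 cadherin genes 5 fell and 2 rose. Cdh2, N-cadherin, was at 47.6, 52.1 and 44.5 in SIX2+ against 15.5, 15.6 and 20.7 (1.44 ± 0.12), and Cdh1, E-cadherin, at 0.297, 0.247 and 0.474 against 9.50, 11.9 and 6.19 (−2.89 ± 0.20).

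Genes of mural, endothelial and blood cells were also lower in the SIX2+ fraction. Of 15 endothelial and 13 leukocyte genes listed 12 each were tested. Those below 1 RPKM in all SIX2+ libraries again passed the filter through the SIX2− libraries alone. Of 13 mural genes 11 fell and Des, the intermediate filament desmin, rose (2 genes rose without pair 1). Pdgfrb, the pericyte receptor, was at 1.13, 1.09 and 1.37 RPKM against 61.2, 64.9 and 69.1 (−4.91 ± 0.07), and Rgs5 at 0.241, 0.245 and 0.0660 against 28.2, 24.5 and 16.7 (−4.32 ± 0.12). Des was at 47.8, 31.9 and 42.7 in SIX2+ against 19.2, 13.8 and 10.8 (1.44 ± 0.14). All 12 endothelial genes tested fell, with the surface glycoprotein gene Emcn at 0.325, 0.344 and 0.174 against 29.7, 33.7 and 13.7 (−4.29 ± 0.19) and Cdh5, VE-cadherin, at 0.0550, 0.208 and 0.191 against 8.47, 12.3 and 5.39 (−3.02 ± 0.19). All 12 leukocyte genes tested fell as well, although 11 were called without pair 1, without pair 2, after quantile normalisation or without the pairing in the fit. The SIX2+ library of pair 1 held more leukocyte RNA than the others: the complement gene C1qb was at 1.69, 0.0823 and 0.239 against 13.8, 19.7 and 16.1 (−3.50 ± 0.30) and Lyz2, lysozyme, at 4.05, 0.207 and 0.131 against 23.0, 24.5 and 14.53 (−3.48 ± 0.36). Over the 11 leukocyte genes that fell by at least 1, the median SIX2+ level was 12.2% of the SIX2− level in pair 1, 0.845% in pair 2 and 1.33% in pair 3. Summed, leukocyte genes made up 0.00259% to 0.00398% of the values in SIX2+ and 0.0256% to 0.0343% in SIX2− libraries, and Ptprc, the pan-leukocyte marker CD45, was at most 0.0123 RPKM in SIX2+ libraries. Erythroid genes were nearly absent from both sorted fractions, at 0.000127% to 0.00554% of the values against 0.120% to 1.21% in unsorted cells.

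Of 6 PDGF genes 2 rose and 4 fell (1 rose without pair 1, and 1 without the pairing in the fit). Pdgfc, a PDGF ligand, was at 64.2, 71.6 and 64.2 RPKM in SIX2+ against 7.97, 11.2 and 15.9 in SIX2− libraries (2.46 ± 0.16), while the receptor gene Pdgfra was at 0.228, 0.227 and 0.226 against 55.2, 36.3 and 49.7 (−5.27 ± 0.12). Of 11 IGF genes 8 fell. Igf2, the fetal growth factor, was at 241, 224 and 192 against 478, 410.2 and 537 (−1.11 ± 0.13), and Igfbp3, which binds it, at 1.59, 2.33 and 1.84 against 70.7, 72.2 and 66.8 (−4.61 ± 0.09), whereas Igfbp2 rose, at 112, 84.6 and 108 against 52.5, 37.5 and 41.0 (1.20 ± 0.08). Of 14 imprinted genes 9 fell, among them Dlk1 at 0.805, 0.786 and 0.695 against 52.0, 40.3 and 73.0 (−4.95 ± 0.16), and Meg3, the noncoding RNA of the same locus, at −3.84 ± 0.15. Grb10, an imprinted growth inhibitor, rose, at 318, 293 and 321 against 159, 156 and 181 (0.91 ± 0.08).

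Retinoid and hedgehog genes were called at shares near that of all genes (6 of 10 and 5 of 9, against 52.4%). Of 10 retinoid genes 5 fell, each by at least 1, and 1 rose (2 rose without pair 1). Crabp1, a retinoic acid binding protein, was at 5.06, 6.29 and 5.32 RPKM against 65.7, 65.0 and 68.6 (−3.37 ± 0.08), and the receptor gene Rarg at 1.81, 2.23 and 2.18 against 16.4, 16.46 and 22.7 (−2.65 ± 0.11). Of 9 hedgehog genes 4 fell and Gas1 rose, or 3 fell and 2 rose without pair 1. Gli1, a target of the pathway, was at 6.58, 6.01 and 8.90 against 28.8, 16.9 and 32.9 (−1.70 ± 0.12). Around thyroid hormone, Crym rose while Thra, the receptor, was at 14.7, 14.3 and 22.0 against 35.4, 30.1 and 46.5 (−1.09 ± 0.07).

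DNA replication and mitosis genes that were called changed by less than 1 on the log2 scale. Of 17 DNA replication genes 3 rose and 4 fell; without pair 1 none rose and 3 fell, without pair 3 the counts were 1 and 3, and without the pairing in the fit 0 and 2. Of 16 mitosis genes 1 rose and 6 fell, but 3 fell without pair 1, 2 rose without pair 2, and without the pairing in the fit none rose and 4 fell. Of 11 cell cycle inhibitors and D cyclins 7 fell, with Cdkn1c, the inhibitor p57, at 161, 89.3 and 118 RPKM in SIX2+ against 442, 272 and 334 in SIX2− libraries (−1.52 ± 0.08), Ccnd1 at 44.4, 54.0 and 39.4 against 84.8, 132 and 114 (−1.24 ± 0.11) and Ccnd2 at −1.25 ± 0.15. Myc, the growth regulator, was at 61.5, 66.9 and 61.6 against 29.3, 29.6 and 22.8 (1.20 ± 0.08), and Hmga2, a chromatin protein of fetal tissue, at 69.3, 55.7 and 50.4 against 25.2, 16.0 and 19.6 (1.49 ± 0.09).

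Immediate early and heat shock genes, which respond to handling, differed between the pairs, and their summed level overlapped between the sorted fractions. Summed, they made up 0.314%, 0.399% and 0.888% of the values in SIX2+ libraries 1 to 3 and 0.523%, 0.369% and 1.02% in SIX2− libraries, so both libraries of pair 3 were the highest. Of 23 tested 12 fell and 4 rose, or 6 and 2 without the pairing in the fit; 9 fell by at least 1, or 5 without pair 1. Klf2 was at 5.07, 5.14 and 29.8 RPKM in SIX2+ against 81.4, 51.1 and 124 in SIX2− libraries (−2.96 ± 0.28), and Atf3 at 5.46, 6.58 and 30.9 against 63.9, 33.4 and 73.5 (−2.25 ± 0.34).

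The antibody sort was set beside the reporter sort of the same stage, in which GFP+ and GFP− cells (n = 3 libraries each) came from whole developing kidneys carrying Six2TGC/+. The libraries of the 2 sorts do not overlap, but the part of the kidney and the way of sorting differ between them, as does the labelling of the allele, and these cannot be told apart. Of 12615 genes tested, the difference of SIX2+ minus SIX2− departed from that of GFP+ minus GFP− in 381 (3.02%), of which 153 were higher and 228 lower. Among the progenitor genes 6 of 24 were called, and among the early nephron genes 14 of 21. In all early nephron genes called, the difference between positive and negative cells was lower in the antibody sort. A lower difference can come from the positive or the negative cells, and levels were not tested between the sorts. Pax8 differed by −0.35 in the antibody sort and by 1.92 in the reporter sort, a difference of −2.27 ± 0.16 (adjusted p = 0.0026), called under every alternative tried. Wnt4 differed by −0.40 and by 2.35, a difference of −2.76 ± 0.37 (adjusted p = 0.00968, but 0.135 without pair 2). Cdh6 (−1.84 ± 0.21, adjusted p = 0.00622) and Jag1 (−1.59 ± 0.19, adjusted p = 0.00659) fell in the antibody sort and differed by −0.18 and −0.49 in the reporter sort; both departures lost their call without the pairing in the fit (0.0665 and 0.12). Cdh4 was higher on the positive side of both sorts, by 0.79 and 2.74 (−1.94 ± 0.23, adjusted p = 0.0069, but 0.0564 without pair 2), and so was Bmp7, by 1.55 and 3.02 (−1.48 ± 0.19, adjusted p = 0.00893, but 0.09 without pair 2). For Six2 itself the differences were 4.72 and 5.73 and were not told apart (−1.01 ± 0.72, adjusted p = 0.49), except without pair 3 (−0.996, adjusted p = 0.03). For Cited1 (0.82 ± 0.69, adjusted p = 0.559), Crym (−0.55 ± 0.54, adjusted p = 0.616) and Col3a1 (0.11 ± 0.23, adjusted p = 0.833) no departure was called. The count of called genes rests on the pairs used, with 97 without the libraries numbered 1, 16 without those numbered 2 and 848 without those numbered 3, and 28 were called with no filter on low values.

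**Figure D5:**
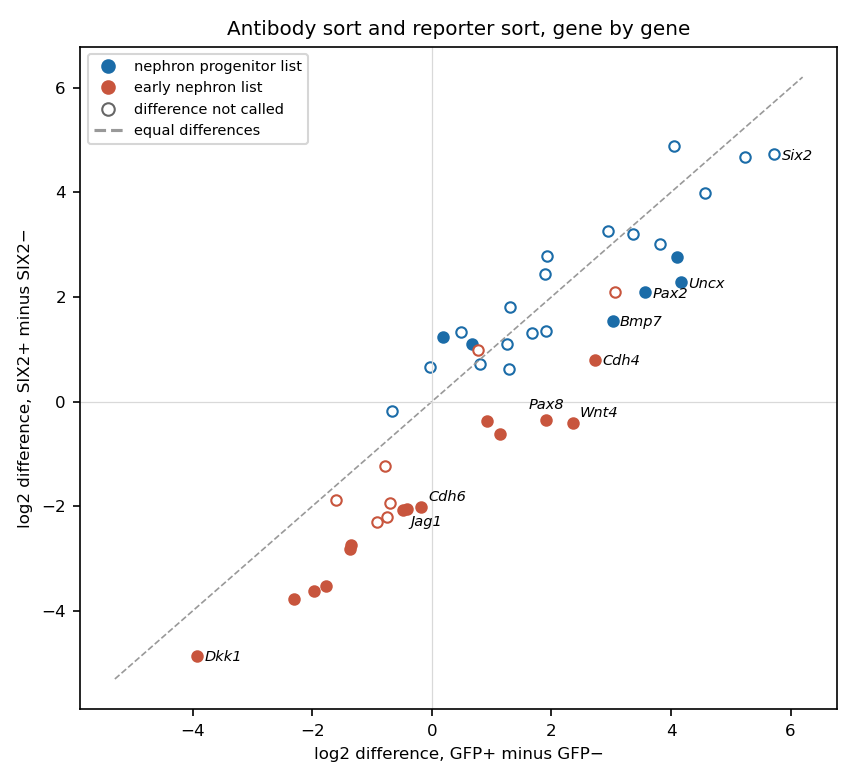
Log2 difference between positive and negative cells in the reporter sort (horizontal) and the antibody sort (vertical) for genes of the nephron progenitor list (blue) and the early differentiating nephron list (red), filled where the departure between the sorts was called. Red filled points lie below the dashed line of equal differences, as for Wnt4 at 2.35 and −0.40 and Pax8 at 1.92 and −0.35.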

How the data were processed

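The authors deposited a table of the 15 E16.5 libraries with 1 value per gene and library. TopHat2, Partek and the mm10 build are named without versions or roles, per the submitters' processing notes. Libraries were made with a stranded mRNA kit from RNA isolated with the RecoverAll and RNeasy Micro kits, per the labels' protocols, without a statement of the kit for each library. The deposited values behave as RPKM although the table is titled TPM: column sums ran from 339454 to 429529 (coefficient of variation 7.99%), and after multiplication by the median transcript length in GENCODE M21, which held 96.0% of the names, the variation was 2.96%. The tests had been designed for TPM, and the test for RPKM is the same. Depth in reads is unknown, so no counting error is given for low values. The table also holds 27 lines whose names had been turned into dates, which are not reported by name.

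Values were compared as log2(RPKM + 1) with limma 3.58.1 (two-sided, variances moderated along a trend with mean level) in R 4.3.3 with data.table (version 1.17.8). Plots came from matplotlib 3.10.9, and tables from pandas 2.3.3 and numpy 2.4.6, under python 3.11.15. The pseudocount of 1 understates changes of low genes. The main fit held the 6 libraries with the pair as a block and left 2 residual degrees of freedom. Adjusted p-values are Benjamini-Hochberg over all genes tested. A second fit over 12 libraries tested the difference between the antibody and reporter sorts, with 6 pair blocks. Its reporter pairs rest on the library numbers alone, as the check of pairing that follows covered the 6 SIX2 libraries only. Deviations from the group means, compared within each number, correlated across genes (r = 0.68, 0.29 and 0.71, against −0.65 to 0.26 between different numbers, with 0.26 for SIX2+ 2 and SIX2− 1), so the numbers, which come from the labels, were taken to pair them. The scripts were tested on simulated data.

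Earlier results of these data were known when the comparison, the 49 gene lists and the naming rule were chosen. The rule names 4 markers, the 12 largest differences in each direction among called genes that reach a mean of 5 RPKM in the higher group without overlap, leaving out predicted genes, and list members chosen by role or among the largest changes. Some genes that meet the rule are not reported here. Alternatives left out the block or each pair, used all 15 libraries, other pseudocounts, filters, scalings or library weights, or no trend.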

Additional observations from a re-analysis of the deposited data

Results flagged for a closer look

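For 19 named genes of the nephron progenitor and early differentiating nephron lists the difference between positive and negative cells departed between the antibody sort and the reporter sort by a test of that departure (limma, adjusted p under 0.05, against 3.02% of all genes). Values are the antibody minus the reporter difference on the log2 scale. Among progenitor genes it was −1.48 for Pax2, −1.90 for Uncx, −1.34 for Rspo1 and −1.48 for Bmp7, and 1.05 for Fgf9 and 0.42 for Hoxa11. The early nephron genes had the lower difference in the antibody sort, with −2.76 for Wnt4, −2.27 for Pax8, −1.94 for Cdh4, −1.84 for Cdh6, −1.75 for Emx2, −1.75 for Greb1, −1.65 for Osr2, −1.64 for Lhx1 and −1.59 for Jag1. The others were Pou3f3 (−1.45), Irx3 (−1.38), Heyl (−1.30) and Dkk1 (−0.94).

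Without the libraries numbered 2 the departures of Pax8, Jag1 and Cdh6 kept their call and the other 16 lost it, with adjusted p from 0.055 (Heyl) to 0.335 (Fgf9). With no filter on low values, of these 19, Pax8 alone kept its call. Without the pairing in the fit Pax2, Uncx, Hoxa11, Rspo1, Lhx1, Jag1, Cdh6, Osr2 and Irx3 lost it. Their adjusted p then ran from 0.0562 (Rspo1 and Irx3) to 0.39 (Hoxa11). Hoxa11 was at the threshold in the main fit (adjusted p = 0.0499) and lost its call in TPM too (0.0975). In TPM so did Fgf9, Irx3, Dkk1 and Pou3f3 (0.0802 to 0.143). Leaving out the libraries numbered 1 took the call from Hoxa11, Rspo1, Fgf9, Dkk1, Osr2, Pou3f3, Heyl, Emx2 and Irx3 (0.0504 to 0.392). Fgf9 was at most 0.301 RPKM in the reporter libraries, near the floor. The departures of Fgf9, Heyl, Pou3f3, Irx3 and Greb1 are given after their values were seen. The sorts also differ in the part of the kidney sampled, which cannot be told apart from the way of sorting, and the labels give an allele for the reporter sort only.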

How the results depend on the processing

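Against 6319 genes called in the paired fit (3356 higher and 2963 lower), 3788 were called without the replicate block (1638 higher and 2150 lower) and 2836 with all 15 libraries and no block (1047 and 1789). After quantile normalisation 4284 rose and 2721 fell. With no filter 3114 rose and 4084 fell. With values of at least 5, 1916 fell, 649 of them by at least 1. With a pseudocount of 5, 183 rose and 512 fell by at least 1. Leaving out 1 pair in turn gave 4356 to 5950 called, 2033 to 3182 higher and 2323 to 2803 lower, 403 to 429 higher and 1182 to 1270 lower by at least 1. Departures between the sorts numbered 141 without the block, 28 with no filter, 201 in TPM and 1633 with library weights, and 16 to 848 on leaving out a pair; no fit with all 15 libraries was made for them.

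The causes were not tested. Of 145 named genes 138 kept direction and side of the threshold in the SIX2+ against SIX2− comparison under every alternative that tested them (13 were not tested at values of at least 5); Gdnf, Wnt4, Pax8, Fgf8, Fgf9, Greb1 and Heyl did not. Leaving out a pair gave Gdnf −0.35 to 0.11 and Wnt4 −0.84 to 0.0027. Uncalled departures between the sorts changed sign for Col3a1 (−0.16 at a pseudocount of 0.1, −0.043 to 0.34 without a pair), Wt1 (0.074 with library weights), Hoxd11 (0.018 with library weights, −0.19 to 0.080 without a pair) and Fgf8 (−0.26 at a pseudocount of 0.1, −0.013 after quantile normalisation, −0.13 with library weights, −0.29 to 0.59 without a pair).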

Other observations

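Of 17 tested ephrins and Eph receptors, which sort cells at tissue borders, 7 rose and 8 fell (3 rose without the pairing in the fit). Efna1 was at 25.1, 30.0 and 30.4 RPKM in SIX2+ against 11.8, 17.2 and 9.64 in SIX2− libraries (1.12 ± 0.14), and Efnb2, an arterial and nephron ephrin, at 3.68, 3.66 and 2.003 against 15.6, 23.2 and 9.26 (−1.99 ± 0.13). Among 13 guidance and chemokine genes 5 rose and 4 fell, with the netrin receptor Unc5c at 23.7, 28.1 and 22.6 against 12.4, 8.33 and 7.06 (1.36 ± 0.14) and Slit1 at 5.73, 6.56 and 6.17 against 0.989, 1.63 and 3.27 (1.34 ± 0.19). Of 20 genes of the Fat, Dachsous and Hippo group 4 rose and 9 fell (1 rose without pair 1, 2 without the pairing). Fat3, a giant cadherin, rose by 1.69, and the YAP target genes Ctgf (2.48, 1.43 and 1.40 against 37.7, 20.0 and 20.5) and Cyr61 (97.4, 92.0 and 148 against 408, 256 and 516) fell by 3.25 ± 0.10 and 1.77 ± 0.12 on the log2 scale. Of 6 T-box and Teashirt genes 4 fell, with Tbx2 at 0.533, 0.460 and 0.589 against 51.7, 37.6 and 44.8 (−4.89 ± 0.10), and 2 rose, with Tshz1 rising by 1.11.

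Of 23 glycolysis genes 10 rose and 3 fell (6 rose without pair 1 and 4 without the pairing), and those that rose by at least 1 were the lactate transporter genes Slc16a1, at 53.1, 63.2 and 48.2 RPKM against 14.3, 14.2 and 19.1 (1.73 ± 0.14), and Slc16a3, at 21.8, 25.2 and 35.9 against 8.79, 10.99 and 16.1 (1.15 ± 0.07). The glucose transporter gene Slc2a3 fell by 1.96. Of 78 cytoplasmic ribosomal protein genes 1 rose and none fell with a median of 0.10, but 57 rose without pair 2. Elavl4, an RNA-binding protein known from neurons, was at 8.36, 9.07 and 6.19 against 0.615, 0.437 and 1.17 (2.36 ± 0.20), while 8 of the 10 genes on the neural and glial list were too low to be tested.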
